A study of Mus musculus with 6 samples.

Results

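The genes described here encode the machinery that starts transcription by RNA polymerases II and III: the general transcription factors (symbols Gtf2 and Gtf3), the TBP-associated factors (TAFs), the subunits of both polymerases (Polr2 and Polr3) and the Mediator complex (Med). They were taken from the count table by symbol alone, leaving out Taf1d and pseudogenes. That gave 98 of 16171 genes: 16 Gtf2, 7 Gtf3, 22 TAF, 13 Polr2, 10 Polr3 and 30 Med genes. No count, fold change or p-value enters that choice, but the set was proposed with earlier results of these libraries known, so all differences between the surfaces given below describe the set and lend it no independent support. The set is wider than RNA polymerase II: it holds the Pol III subunits and TFIIIC, the Pol I factors Taf1a, Taf1b and Taf1c, 5 subunits shared by all the nuclear polymerases, the RNA-binding protein Taf15 and the TFII-I family.

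RNA was sequenced from Raw264.7 cells, a mouse macrophage line labelled wild type, cultured on titanium with a calcium phosphate nanowire coating (THCaP, 3 libraries) or with titanate nanowires from an alkaline heat treatment (TH, 3 libraries). All 6 libraries come from cells that attached for 12 h, received lipopolysaccharide (LPS, an outer membrane molecule of bacteria that activates these cells) at 1 µg/mL for 2 h and were then cultured for 1 d, so no library shows these genes without LPS. The labels name no separate cultures. The p-values therefore rest on sample spread alone, and that spread may be technical.

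Transcription of protein-coding genes starts when TFIID, made of the TATA-binding protein TBP and the TAFs, marks a promoter and TFIIA, TFIIB, TFIIE, TFIIF and TFIIH bring in and activate RNA polymerase II. Mediator links DNA-bound activators to that polymerase through its tail, middle and head, which a backbone subunit joins, and a separable kinase module modulates it. RNA polymerase III makes tRNAs and 5S rRNA with TFIIIA and TFIIIC.

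Library totals ran from 28000099 to 30317108 counts. All 7 macrophage markers listed for the check were expressed well enough to be tested, at summed levels of 2580 to 2770 CPM, the count as a share of the library, on THCaP and 2290 to 2630 CPM on TH, while markers of fibroblasts, T cells, neutrophils and epithelium summed to at most 0.357 CPM in any library. All marker sums were scaled by library totals, not by TMM factors. Endothelial markers summed to 2.31 to 4.14 CPM on THCaP and 4.43 to 5.57 CPM on TH, B cell markers to at most 0.679 CPM and osteoblast markers to at most 1.22 CPM. Their part in the results was not tested. On the first principal component (60.5% of the variance) THCaP replicate 3 lay nearest to TH, and on the second (13.7%) TH replicate 1 stood apart. A difference in CPM is a difference in share of the library, and fewer cells of a kind cannot be told apart from less RNA per cell.

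The upstream sequences of 4 members are shown because these members carry the clearest differences: Med16, Polr3b and Gtf3c2 were the only ones to keep their call in every alternative run, and Med10 had the largest decrease. Each is the 250 bases before a RefSeq transcription start on GRCm38.p6, read 5′ to 3′ along the gene. Med16 covers chr10:79908939-79909188 on the minus strand, Polr3b chr10:84622048-84622297 on the plus strand, Gtf3c2 chr5:31180145-31180394 on the minus strand and Med10 chr13:69802120-69802369 on the plus strand. Capitals mark matches, on either strand, to the 6 motifs named after the sequences.
Med16: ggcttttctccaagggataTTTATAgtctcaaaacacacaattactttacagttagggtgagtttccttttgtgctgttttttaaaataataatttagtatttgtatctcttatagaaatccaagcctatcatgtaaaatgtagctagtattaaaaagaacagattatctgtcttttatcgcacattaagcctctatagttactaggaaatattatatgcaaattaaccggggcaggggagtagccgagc
Polr3b: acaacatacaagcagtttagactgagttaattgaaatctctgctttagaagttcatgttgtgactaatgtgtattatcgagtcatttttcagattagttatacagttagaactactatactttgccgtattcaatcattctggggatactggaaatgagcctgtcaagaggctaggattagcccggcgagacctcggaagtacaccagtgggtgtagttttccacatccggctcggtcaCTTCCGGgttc
Gtf3c2: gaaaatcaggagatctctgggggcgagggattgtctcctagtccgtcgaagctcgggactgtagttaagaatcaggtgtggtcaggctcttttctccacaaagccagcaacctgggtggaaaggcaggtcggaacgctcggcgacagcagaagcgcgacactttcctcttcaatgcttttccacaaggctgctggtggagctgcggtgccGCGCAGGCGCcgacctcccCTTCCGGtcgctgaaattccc
Med10: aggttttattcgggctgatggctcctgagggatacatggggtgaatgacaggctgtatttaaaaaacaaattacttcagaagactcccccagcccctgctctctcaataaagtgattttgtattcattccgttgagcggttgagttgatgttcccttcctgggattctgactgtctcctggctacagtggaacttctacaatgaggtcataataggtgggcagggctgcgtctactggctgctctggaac
The motifs were the TATA box TATAAA, the GC box GGGCGG, the CCAAT box CCAAT, the E box CACGTG, the ETS motif CCGGAAG and the NRF1 motif (GCGC, any base, TGCGC), none of which contains another. Med16 held a TATA box match, Polr3b an ETS match, and Gtf3c2 an ETS and an NRF1 match, while none of the 6 was found in the Med10 window shown. The Med16 match reads on the opposite strand and lies at the end of the window far from the transcription start. Med10 has 2 windows in the RefSeq set, and the window not shown held GC box and ETS letters. Promoter windows were found for 84 members, 100 windows in all. The ETS letters stood in 26% of the member windows and in 6.91% of 32851 windows of the whole table, whether or not the gene is expressed here, and the NRF1 letters in 14% and 3.74%. For the GC box these shares were 56% and 32.7%, and for the E box 16% and 6.02%. They were 13% and 12.4% for the TATA box and 33% and 33.8% for the CCAAT box. The 18 windows of members called higher (14 genes) stood against the 76 windows of members not called (66 genes). In these the ETS letters stood in 38.9% and 23.7%, the NRF1 letters in 5.56% and 17.1% and the GC box letters in 33.3% and 61.8%. The TATA box letters stood in 27.8% and 9.21%, the CCAAT box letters in 22.2% and 38.2% and the E box letters in 16.7% and 14.5%. No test was made on these shares. A match describes the letters and is not evidence of binding.

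Most of these genes are expressed in Raw264.7 cells, and the set as a whole lay slightly higher on THCaP. Of the 98 members, 95 were tested, and 71 of these had a positive log2 fold change (THCaP over TH) and 24 a negative one (75 and 20 with library totals in place of TMM). The median was 0.13, against 0.01 over all 11480 tested genes, and the quartiles were −0.0035 and 0.28. In edgeR's quasi-likelihood test over all tested genes, with calls at a Benjamini-Hochberg adjusted p under 0.05, 16 members were higher on THCaP, 2 were lower and 77 were not called. Over all tested genes 11.6% were called higher, 12.0% lower and 23.6% in either direction, so the 18.9% of members called is not above the general share. No member changed by 2-fold or more. The members that rose were Med16, Taf6l, Polr3b, Med27, Gtf2h4, Med14, Gtf3a, Gtf3c6, Gtf3c2, Gtf2h2, Taf11, Taf2, Med30, Gtf2h3, Polr2a and Taf6, and those that fell were Med10 and Taf7.

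The calls depended on single libraries. All 18 had libraries of the surfaces that did not overlap, as did 41 of the 95 tested members (36 higher, 5 lower), beside 43.4% of all tested genes (22.1% higher, 21.3% lower). Leaving out 1 library gave between 4 member calls (without THCaP replicate 1 or TH replicate 3) and 33 (without THCaP replicate 3), newly called members included. Omitting THCaP replicate 2 gave 9 calls, and omitting TH replicate 2 or TH replicate 1 gave 5 or 17. Of the 18 original calls, all remained without THCaP replicate 3 and 13 without TH replicate 1. Without THCaP replicate 1, THCaP replicate 2, TH replicate 2 or TH replicate 3, 4, 9, 5 or 4 of them remained. Without both THCaP replicate 3 and TH replicate 1, an omission chosen after seeing the data, 39 members were called higher and 10 lower, and all 18 original calls remained, while 5207 of all genes were called in place of 2709. Scaling by library totals instead of TMM factors moved the median of all genes to 0.06. Then 25 members were called higher and 2 lower, beside 1904 of all genes higher (16.6%) and 1063 lower (9.26%) in place of 1333 and 1376.

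**Figure D1:**
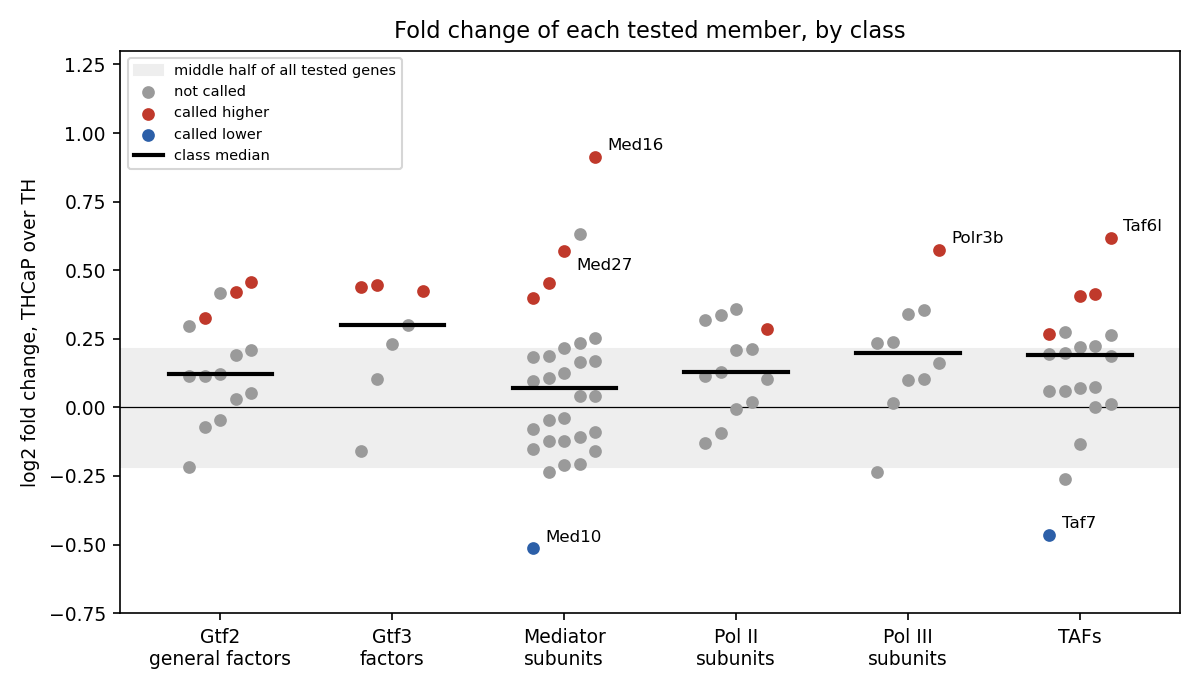
Log2 fold change (THCaP over TH) of each of the 95 tested members, by class on the horizontal axis; points are genes, coloured by call, bars are class medians and the grey band is the interquartile range of all tested genes. Class medians run from 0.07 for Mediator to 0.30 for the Gtf3 factors, and Med16 and Med10 are the highest and lowest points.

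All class medians were positive, and no test was made between classes. The median log2 fold change was 0.12 for the Gtf2 general factors (3 of 15 tested higher), 0.30 for the Gtf3 factors (3 of 7 higher), 0.19 for the TAFs (4 of 20 higher, 1 lower), 0.13 for the Pol II subunits (1 of 13 higher), 0.20 for the Pol III subunits (1 of 10 higher) and 0.07 for Mediator (4 of 30 higher, 1 lower). Over all tested genes 11.6% were called higher and 12.0% lower. With library totals the numbers called higher became 5, 4, 5, 3, 3 and 5 in the same order, with 1 TAF and 1 Mediator gene lower. Over all genes the shares were then 16.6% higher and 9.26% lower. Without THCaP replicate 3 and TH replicate 1, an omission chosen after seeing the data, the numbers called higher became 7, 5, 8, 5, 6 and 8. Then 1 Gtf2, 1 Gtf3, 2 TAF, 1 Pol III and 5 Mediator genes were lower. That omission also raised the calls over all genes, from 1333 to 2625 higher and from 1376 to 2582 lower.

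Averaged over the 95 tested members, the relative log2 level (centred on the mean of the 6 libraries) was 0.06, 0.16 and −0.02 in THCaP replicates 1, 2 and 3 and −0.05, −0.08 and −0.07 in TH replicates 1, 2 and 3. The 3 THCaP libraries thus lay above the 3 TH libraries, with THCaP replicate 2 highest and THCaP replicate 3 close to TH. For the Pol II subunits the surfaces overlapped, at 0.03, 0.25 and −0.07 on THCaP and −0.03, −0.08 and −0.09 on TH. For the Gtf3 factors the values were 0.12, 0.24 and 0.01 on THCaP and −0.19, −0.09 and −0.09 on TH.

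**Figure D2:**
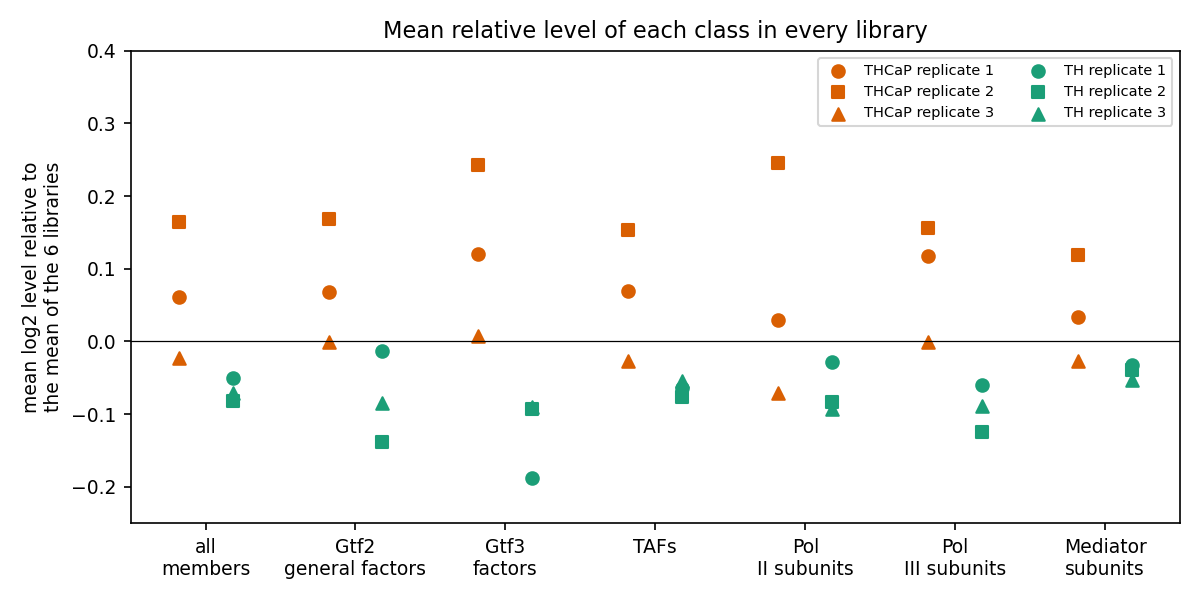
Mean relative log2 level (vertical axis; the mean of the 6 libraries is 0) of all tested members and of each class, with THCaP libraries in orange to the left of TH libraries in green; each symbol is 1 library. THCaP replicate 2 is the highest library in every class, and THCaP replicate 3 is the THCaP library nearest to TH.

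Among the general factors of RNA polymerase II, 3 of the 5 Gtf2h genes of TFIIH rose, and none of the 10 other tested Gtf2 genes passed the test. Over all tested genes 11.6% were called higher. TFIIH opens promoter DNA, phosphorylates the polymerase tail and also acts in nucleotide excision repair. Gtf2h4, which anchors the XPB translocase, had 29, 32.2 and 28.5 CPM in THCaP replicates 1, 2 and 3, against 23.6, 20.4 and 21.4 CPM in TH replicates 1, 2 and 3. Its libraries did not overlap and it rose 1.37-fold (log2 fold change 0.46, SE 0.10, adjusted p = 0.0136 in edgeR). Gtf2h2, a core ring subunit, had 20.7, 21.5 and 16.6 CPM on THCaP, against 16.4, 13 and 14.7 CPM on TH, with THCaP replicate 3 just above TH replicate 1. Gtf2h2 rose 1.34-fold (log2 fold change 0.42, SE 0.13, adjusted p = 0.0471 in edgeR). Gtf2h3, its partner in the ring, had 29.2, 30 and 27.8 CPM on THCaP, against 25.8, 20.7 and 22.9 CPM on TH. Gtf2h3 rose 1.25-fold (log2 fold change 0.33, SE 0.10, adjusted p = 0.0459 in edgeR). Gtf2h5 (log2 fold change 0.30, edgeR adjusted p = 0.0963) and Gtf2h1 (0.11, edgeR adjusted p = 0.406) were not called, and neither were the TFIIH genes without a Gtf2 symbol, the helicases Ercc2 (−0.03) and Ercc3 (0.08) and the kinase module genes Cdk7 (0.15), Ccnh (0.19) and Mnat1 (0.07). Whether TFIIH differs from the other factors was not tested. Gtf2h4 lost its call without THCaP replicate 1 (0.0532), TH replicate 2 (0.0668) or TH replicate 3 (0.0638). Gtf2h2 did so without THCaP replicate 1 (0.158), THCaP replicate 2 (0.112), TH replicate 2 (0.168) or TH replicate 3 (0.130) and with limma-voom (0.0530) and with unfiltered log2(FPKM + 1) values (0.0787). Gtf2h3 did so without THCaP replicate 1 (0.148), THCaP replicate 2 (0.0985), TH replicate 2 (0.176) or TH replicate 3 (0.143) and with unfiltered log2(FPKM + 1) values (0.0604), where the values in parentheses are adjusted p.

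The factors that place the polymerase showed no call. TFIIB, encoded by Gtf2b, which bridges TBP and the polymerase, had 39.9, 41.7 and 37.3 CPM on THCaP, against 47.3, 36.1 and 39.1 CPM on TH (log2 fold change −0.04, SE 0.11, adjusted p = 0.792 in edgeR), so the surfaces overlapped, and its sign turned with library totals (0.01). The large TFIIA subunit gene Gtf2a1 had 38.3, 45.3 and 36.7 CPM on THCaP, against 40.5, 37 and 38.5 CPM on TH (log2 fold change 0.05, SE 0.10, adjusted p = 0.728 in edgeR), and its germ cell relative Gtf2a1l had 1 count over the THCaP libraries and 2 over the TH libraries. The TFIIE and TFIIF genes had log2 fold changes from −0.07 for Gtf2e2 to 0.21 for Gtf2f2. In the TFII-I family, DNA-binding proteins that share a symbol with the general factors, Gtf2i had 194, 194 and 200.2 CPM on THCaP, against 172, 171 and 172 CPM on TH. These libraries did not overlap, yet Gtf2i was not called (log2 fold change 0.19, SE 0.07, adjusted p = 0.0706 in edgeR); it was called with library totals (0.0308). Gtf2ird2 was higher in each THCaP library (12.2, 12.6 and 13 CPM on THCaP, against 11.3, 8.83 and 8.17 CPM on TH) without passing the test (log2 fold change 0.42, SE 0.14, adjusted p = 0.0556 in edgeR), and with library totals it was called (0.0379). About 6.58% of its exonic bases overlap the abundant neighbour Ncf1 on the other strand. Gtf2ird1 overlapped between the surfaces (−0.22, edgeR adjusted p = 0.177).

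Of the 7 Gtf3 genes, 3 rose and none fell. Gtf3c2, a TFIIIC subunit at mouse chromosome 5, 31156005 to 31180144 (GRCm38, GENCODE vM21, protein coding, minus strand), had 172, 188 and 164 CPM in THCaP replicates 1, 2 and 3, against 123, 134 and 133 CPM in TH replicates 1, 2 and 3. All THCaP libraries exceeded all TH libraries, and the group means were 175 ± 12 CPM on THCaP and 130.1 ± 6.08 CPM on TH (SD, n = 3 each). Gtf3c2 rose 1.34-fold (log2 fold change 0.43, SE 0.08, adjusted p = 0.00951 in edgeR). In GENCODE, 38.9% of its exonic bases are shared with Gm29609, a gene model on the same strand. Gtf3a, which encodes TFIIIA, the factor that binds the 5S rRNA gene, had 35.6, 47.2 and 32.7 CPM on THCaP, against 30.7, 26.2 and 27.9 CPM on TH. Gtf3a rose 1.36-fold (log2 fold change 0.45, SE 0.14, adjusted p = 0.0430 in edgeR). THCaP replicate 2 was its highest library, and 59.1% of its exonic bases overlap Mtif3 on the other strand, whose reads are not separable if counting ignored strand. The small TFIIIC subunit gene Gtf3c6 had 13.8, 15 and 11 CPM on THCaP, against 9.86, 9.91 and 9.60 CPM on TH. Gtf3c6 rose 1.35-fold (log2 fold change 0.44, SE 0.14, adjusted p = 0.0439 in edgeR). The other TFIIIC genes were not called, with log2 fold changes of 0.30 for Gtf3c3, 0.23 for Gtf3c5, 0.10 for Gtf3c1 and −0.16 for Gtf3c4. Gtf3a lost its call without THCaP replicate 1 (0.0809), THCaP replicate 2 (0.0997), TH replicate 1 (0.0601), TH replicate 2 (0.145) or TH replicate 3 (0.125) and with limma-voom (0.0510) and with unfiltered log2(FPKM + 1) values (0.0907). Gtf3c6 did so without THCaP replicate 1 (0.149), THCaP replicate 2 (0.124), TH replicate 1 (0.0787), TH replicate 2 (0.117) or TH replicate 3 (0.132) and with limma-voom (0.0550) and with unfiltered log2(FPKM + 1) values (0.0697).

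**Figure D3:**
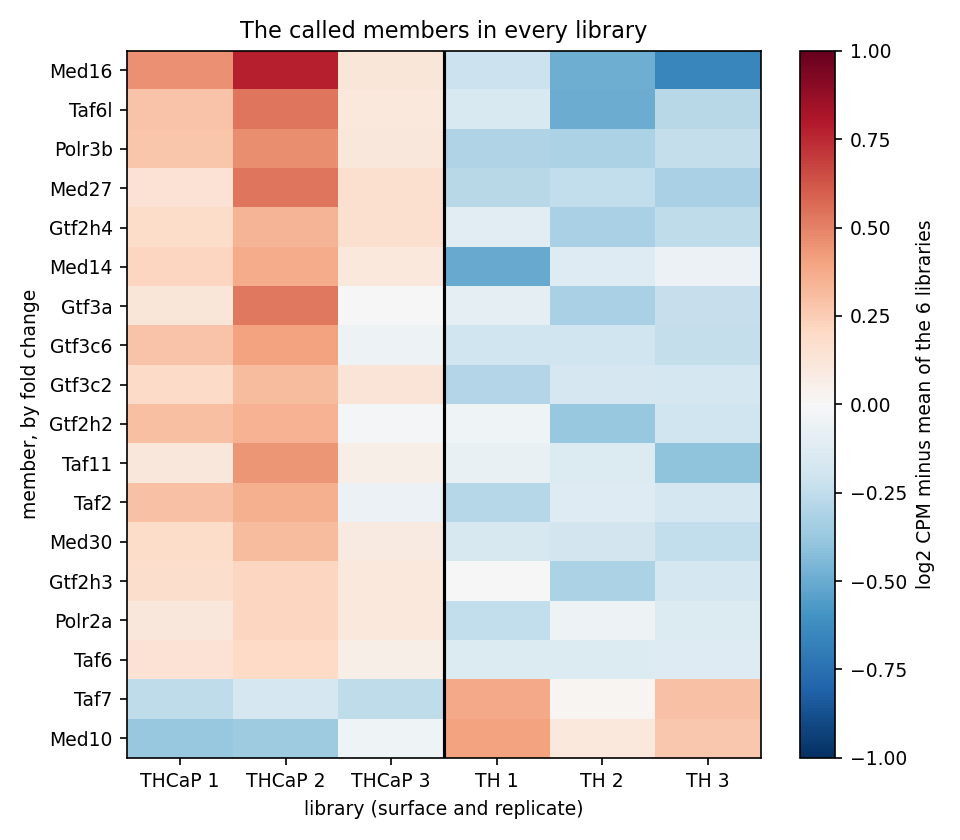
Log2 CPM of the 18 called members in each library relative to the mean of the 6 libraries (colour), with the 3 THCaP libraries left of the 3 TH libraries and genes ordered by fold change. The 16 genes that rose are strongest in THCaP replicate 2, and Taf7 and Med10 are lower in all 3 THCaP libraries than in all 3 TH libraries.

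Among the TAFs, 4 rose, 1 fell and 15 of 20 tested were not called. Taf6l, the TAF6 relative of the SAGA coactivator, had 12.5, 14.9 and 11.1 CPM in THCaP replicates 1, 2 and 3, against 9.26, 7.32 and 8.53 CPM in TH replicates 1, 2 and 3, a clean separation. Taf6l rose 1.54-fold (log2 fold change 0.62, SE 0.15, adjusted p = 0.0194 in edgeR). Its TFIID counterpart Taf6, a histone-fold subunit, had 57.4, 59.4 and 54 CPM on THCaP, against 47.2, 47.1 and 47.5 CPM on TH, a smaller difference between tight groups (1.21-fold; log2 fold change 0.27, SE 0.08, adjusted p = 0.0345 in edgeR), and 26.5% of its exonic bases overlap Ap4m1 on the other strand. Taf2, which contacts the initiator element, had 57.5, 60.3 and 45.2 CPM on THCaP, against 38.6, 42.9 and 41.7 CPM on TH. Taf2 rose 1.32-fold (log2 fold change 0.40, SE 0.11, adjusted p = 0.0328 in edgeR). Taf11, the histone-fold partner of Taf13, had 29.6, 37.2 and 28.4 CPM on THCaP, against 25.9, 24.9 and 20.6 CPM on TH (1.33-fold; log2 fold change 0.41, SE 0.13, adjusted p = 0.0452 in edgeR), while Taf13 itself was not called (0.00, edgeR adjusted p = 1.00). Taf7 went the other way. It encodes a regulator of TAF1 and had 16.8, 17.9 and 16.8 CPM in THCaP replicates 1, 2 and 3, against 26.1, 20.4 and 24.6 CPM in TH replicates 1, 2 and 3 (log2 fold change −0.46, SE 0.11, adjusted p = 0.0205 in edgeR), with every THCaP library below every TH library. Taf8, another TFIID subunit, was likewise lower in all THCaP libraries (33.3, 29.1 and 35 CPM on THCaP, against 37.2, 40 and 39.6 CPM on TH) but was not called (edgeR adjusted p = 0.0682). Taf6l lost its call without THCaP replicate 1 (0.0636), TH replicate 2 (0.0787) or TH replicate 3 (0.0676). Taf6 did so without THCaP replicate 1 (0.140), THCaP replicate 2 (0.0784), TH replicate 2 (0.117) or TH replicate 3 (0.119). Taf2 did so without THCaP replicate 1 (0.124), THCaP replicate 2 (0.0725), TH replicate 1 (0.0822), TH replicate 2 (0.0819) or TH replicate 3 (0.0974) and with unfiltered log2(FPKM + 1) values (0.0733). Taf11 did so without THCaP replicate 1 (0.0913), THCaP replicate 2 (0.122), TH replicate 1 (0.0571), TH replicate 2 (0.105) or TH replicate 3 (0.165) and with unfiltered log2(FPKM + 1) values (0.0874). Taf7 did so without THCaP replicate 1 (0.0820) or TH replicate 3 (0.0824) and with unfiltered log2(FPKM + 1) values (0.0697).

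Taf1, the scaffold of TFIID, had 97.2, 94.3 and 88.8 CPM on THCaP, against 73.6, 87 and 83.9 CPM on TH without overlap and was not called (log2 fold change 0.20, SE 0.09, adjusted p = 0.124 in edgeR). Several TAFs have a second, related gene, which could be far lower, as for Taf9 and Taf7, or of like order, as for Taf4. Per length, Taf9 stood at 35.4 ± 1.79 FPKM on THCaP and 32.7 ± 0.793 FPKM on TH (the authors' FPKM, a level scaled for gene length and library size), while its relative Taf9b had 3 counts on THCaP and 3 on TH. Taf7l had 0 counts over the THCaP libraries, a limit of at most 0.107 CPM in a library, and 3 over the TH libraries. Taf4 and Taf4b were both expressed, at 11.1 ± 0.190 FPKM on THCaP and 9.38 ± 0.741 FPKM on TH and at 4.99 ± 0.40 FPKM on THCaP and 4.58 ± 0.414 FPKM on TH, neither called (edgeR adjusted p = 0.129 for Taf4 and 0.637 for Taf4b). Taf5 (0.01) and its SAGA relative Taf5l (0.19) were not called either. The level of Taf9 may be off in either direction, because 73.8% of its exonic bases are shared with Ak6 on the same strand. The Pol I selectivity factor genes were not called, with log2 fold changes of 0.06 for Taf1a, 0.27 for Taf1b and 0.22 for Taf1c. Taf1b was higher in every THCaP library (21.9, 22.7 and 20.2 CPM on THCaP, against 18.4, 17.8 and 17.6 CPM on TH; edgeR adjusted p = 0.0663, and 0.0364 with library totals). Taf15 lay at −0.13 (edgeR adjusted p = 0.252).

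In RNA polymerase II itself, the gene of the largest subunit rose and that of the second largest narrowly missed the threshold. Polr2a, whose product carries the tail of heptad repeats and part of the active site, lies on mouse chromosome 11, 69733997 to 69758637 (minus strand, protein coding) and had 304, 328 and 304 CPM in THCaP replicates 1, 2 and 3, against 238, 272 and 257 CPM in TH replicates 1, 2 and 3. The lowest THCaP library stood above the highest TH library, and the means were 312 ± 13.7 CPM on THCaP and 256 ± 17 CPM on TH (SD, n = 3 each). Polr2a rose 1.22-fold (log2 fold change 0.29, SE 0.08, adjusted p = 0.0331 in edgeR). Polr2b, which forms the other wall of the active site, had 105, 121 and 89.2 CPM on THCaP, against 76.7, 84.6 and 87.5 CPM on TH, with THCaP replicate 3 only just above TH replicate 3 (log2 fold change 0.34, SE 0.11, adjusted p = 0.0538 in edgeR). It passed in 8 of 17 alternatives, among them DESeq2 (0.0243) and library totals (0.0295). The call of Polr2a was lost without THCaP replicate 1 (0.108), THCaP replicate 2 (0.0669), TH replicate 1 (0.0540), TH replicate 2 (0.0696) or TH replicate 3 (0.115).

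The small subunits showed no call. Beside Polr2a and Polr2b, the subunits found only in Pol II ranged from −0.01 for Polr2i to 0.32 for Polr2j (Polr2i turned to 0.04 with library totals), and those shared with Pol I and Pol III from −0.13 for Polr2e to 0.36 for Polr2k, whose SE was 0.22. Per length, Polr2e had 91.7 ± 4.71 FPKM on THCaP and 96.7 ± 12.5 FPKM on TH, the highest mean of the class over the 6 libraries though not on THCaP, and Polr2k had 10.8 ± 2.62 FPKM on THCaP and 8.11 ± 1.44 FPKM on TH, the lowest. Polr2m, which encodes the polymerase inhibitor Gdown1, stood at 94.3 ± 3.97 FPKM on THCaP and 84.6 ± 0.929 FPKM on TH (log2 fold change 0.10, SE 0.07, adjusted p = 0.318 in edgeR), and Polr2a at 47.2 ± 1.94 FPKM on THCaP and 37.3 ± 2.43 FPKM on TH. The class had a median of 28.1 FPKM over the 6 libraries, against 12.8 FPKM for all tested members and 10.3 FPKM for all tested genes. Exons of Polr2i (26.8% of bases, with Tbcb), Polr2c (18.1%, with Dok4) and Polr2j (15.9%, with Lrwd1) overlap genes on the other strand.

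**Figure D4:**
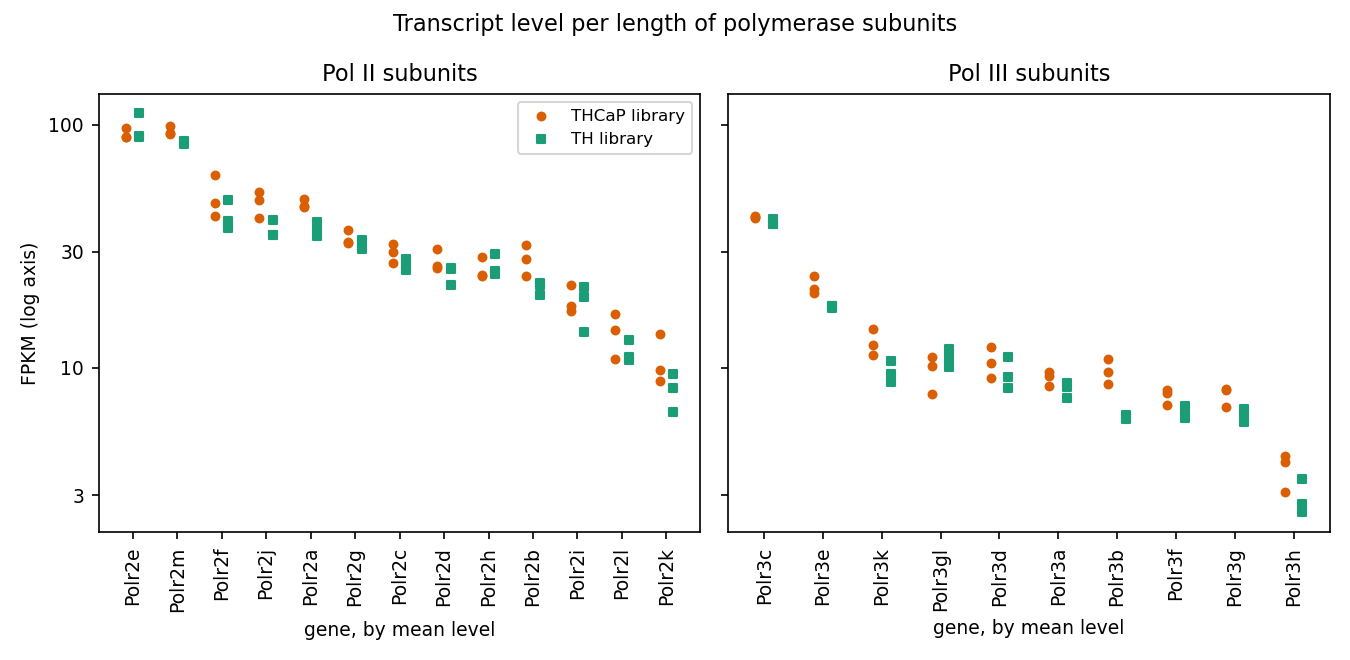
FPKM on a log axis of each Pol II and Pol III subunit gene, ordered by mean level, with THCaP libraries as orange circles to the left of TH libraries as green squares. Pol II subunits lie mostly above Pol III subunits, and Polr3b is the Pol III gene whose surfaces are furthest apart; the place of Polr3gl rests on the length the authors used.

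Of the 10 Pol III subunit genes, Polr3b was the only one called. It encodes the second-largest, catalytic subunit, lies on mouse chromosome 10, 84622292 to 84727178 (plus strand, protein coding) and had 46.9, 53.4 and 41.7 CPM in THCaP replicates 1, 2 and 3, against 31.4, 31.1 and 32.8 CPM in TH replicates 1, 2 and 3. All THCaP libraries were well above the narrow TH range, with means of 47.3 ± 5.82 CPM on THCaP and 31.8 ± 0.865 CPM on TH (SD, n = 3 each). Polr3b rose 1.49-fold (log2 fold change 0.58, SE 0.10, adjusted p = 0.00753 in edgeR). Its catalytic partner Polr3a had 42.6, 39.2 and 44.3 CPM on THCaP, against 35.8, 41.3 and 40.5 CPM on TH, so the surfaces overlapped (log2 fold change 0.10, SE 0.09, adjusted p = 0.444 in edgeR). Polr3k, a small subunit involved in RNA cleavage, was higher in all THCaP libraries (35.6, 41.6 and 32.5 CPM on THCaP, against 31.6, 25.9 and 28.3 CPM on TH) and just missed the threshold (log2 fold change 0.36, SE 0.12, adjusted p = 0.0512 in edgeR); it passed in 9 of 17 alternatives, library totals among them (0.0301). Polr3e, with 62.7, 71.4 and 60.5 CPM on THCaP, against 55.1, 55 and 54.7 CPM on TH, also had no overlap and no call (log2 fold change 0.24, SE 0.09, adjusted p = 0.0661 in edgeR), and was called with library totals (0.0326).

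Polr3g and Polr3gl encode alternative forms of 1 subunit of the Pol III initiation trimer. Polr3g had 24.6, 24.4 and 20.8 CPM on THCaP, against 21.1, 18.6 and 19.7 CPM on TH (log2 fold change 0.23, SE 0.11, adjusted p = 0.131 in edgeR). Polr3gl had 132, 102 and 144 CPM on THCaP, against 135, 161 and 149 CPM on TH (log2 fold change −0.24, SE 0.13, adjusted p = 0.193 in edgeR). The fitted signs are opposite, but the libraries of the surfaces overlap for both genes and neither was called. Their levels per length are not compared, because the length the authors used for Polr3gl is 13242 bases and its GENCODE exons cover 1597 bases. Polr3c stood at 41.7 ± 0.424 FPKM on THCaP and 39.7 ± 1.11 FPKM on TH and was level between the surfaces (0.02, edgeR adjusted p = 0.889).

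Mediator held both the largest increase and the largest decrease of the set. Of its 30 genes, 17 had positive and 13 negative log2 fold changes (19 and 11 with library totals), 4 rose and 1 fell. Med16, a tail subunit that receives activator contacts, lies on mouse chromosome 10, 79894708 to 79908923 (minus strand, protein coding) and had 26.2, 32.7 and 20.8 CPM in THCaP replicates 1, 2 and 3, against 16.5, 13.6 and 12.2 CPM in TH replicates 1, 2 and 3. The lowest THCaP library lay above the highest TH library, and the means were 26.6 ± 5.97 CPM on THCaP and 14.1 ± 2.21 CPM on TH (SD, n = 3 each). Med16 rose 1.89-fold (log2 fold change 0.91, SE 0.17, adjusted p = 0.00881 in edgeR). The other tail genes were not called: Med24 stood at 0.25 (edgeR adjusted p = 0.0530, and 0.0266 with library totals), Med23 at 0.17, Med25 at 0.11 and Med15 at −0.04 (0.02 with library totals).

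Med27 and Med30, which sit where head and tail meet, and the backbone gene Med14 rose as well. Med27 had 18.1, 23.7 and 18.3 CPM on THCaP, against 13.5, 13.8 and 13.1 CPM on TH, the increase being largest in THCaP replicate 2. Med27 rose 1.48-fold (log2 fold change 0.57, SE 0.13, adjusted p = 0.0147 in edgeR). Med30 had 31.1, 34.1 and 29.1 CPM on THCaP, against 24.4, 24.1 and 23 CPM on TH. Med30 rose 1.32-fold (log2 fold change 0.40, SE 0.09, adjusted p = 0.0173 in edgeR). Med14, which ties head, middle and tail together, had 79.8, 88.7 and 73.9 CPM on THCaP, against 48.5, 62.9 and 66 CPM on TH, with TH replicate 1 well below the other TH libraries. Med14 rose 1.37-fold (log2 fold change 0.45, SE 0.12, adjusted p = 0.0289 in edgeR). None of the 3 genes had overlapping surfaces. Med28 (−0.12) and Med29 (0.04), of the same region, were not called. Med27 lost its call without TH replicate 2 (0.0551) or TH replicate 3 (0.0630). Med30 did so without THCaP replicate 1 (0.0714), TH replicate 2 (0.0669) or TH replicate 3 (0.0800). Med14 did so without THCaP replicate 1 (0.0819), THCaP replicate 2 (0.0565) or TH replicate 2 (0.0704) and with unfiltered log2(FPKM + 1) values (0.0679).

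Med10, a middle subunit, was the Mediator gene that fell. It had 33.2, 33.7 and 41.9 CPM in THCaP replicates 1, 2 and 3, against 57, 46.4 and 51.8 CPM in TH replicates 1, 2 and 3, with means of 36.3 ± 4.85 CPM on THCaP and 51.7 ± 5.34 CPM on TH (SD, n = 3 each). Med10 fell on THCaP (log2 fold change −0.51, SE 0.12, adjusted p = 0.0163 in edgeR). Every THCaP library was below every TH library, THCaP replicate 3 being the closest. In GENCODE 92.8% of its exonic bases overlap Gm26819, a long non-coding RNA gene on the other strand that is not among the rows of the count table. The call was lost without THCaP replicate 1 (0.0742) or TH replicate 3 (0.0590) and with unfiltered log2(FPKM + 1) values (0.0688). The remaining middle genes ran from −0.21 for Med31 to 0.19 for Med19, and 6 of the 9 middle genes had negative values (5 with library totals). Med1, the subunit known for nuclear receptor contacts, had 112, 102 and 113 CPM on THCaP, against 105, 128 and 130.1 CPM on TH (log2 fold change −0.15, SE 0.10, adjusted p = 0.269 in edgeR), an overlap in which TH replicate 1 was the low TH library. The 7 head genes ran from −0.11 for Med18 to 0.24 for Med20 without a call.

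**Figure D5:**
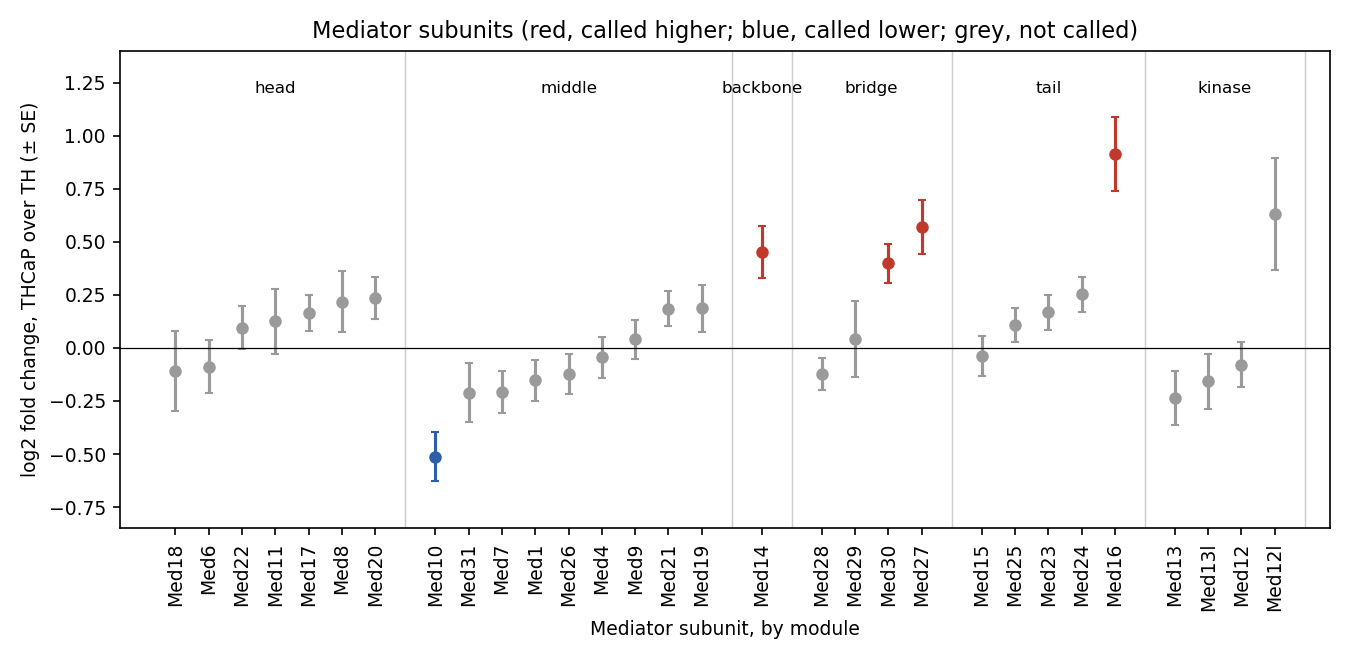
Log2 fold change (THCaP over TH) with its SE for each of the 30 Mediator genes, grouped by module and ordered within it; red marks genes called higher, blue lower and grey not called. Med14, Med27, Med30 and Med16 are the genes called higher, Med10 is the lowest, and Med12l, with the fewest counts, has the widest bar.

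The kinase module showed no call. Med12, which activates its kinase, had 127, 119.8 and 136 CPM on THCaP, against 117, 153 and 134 CPM on TH (log2 fold change −0.08, SE 0.11, adjusted p = 0.611 in edgeR). Med13, which docks the module to core Mediator, had 126, 119 and 135 CPM on THCaP, against 118, 166 and 164 CPM on TH (log2 fold change −0.24, SE 0.13, adjusted p = 0.195 in edgeR), and its relative Med13l had 98.8, 84.5 and 100.5 CPM on THCaP, against 83.9, 115 and 117 CPM on TH (log2 fold change −0.16, SE 0.13, adjusted p = 0.399 in edgeR). In each of the 3 genes TH replicate 1 was the lowest TH library and the surfaces overlapped. Without THCaP replicate 3 and TH replicate 1, an omission chosen after seeing the data, all 3 were called lower (edgeR adjusted p = 0.0486 for Med12, 0.00101 for Med13 and 0.00795 for Med13l). The same omission raised the lower calls over all genes from 1376 to 2582. Without TH replicate 1 alone, Med13 was called lower (0.0212). Med12l, with 127 counts over the THCaP libraries and 80 over the TH libraries, was far less abundant than Med12, at 0.133 ± 0.0149 FPKM on THCaP and 0.0828 ± 0.0137 FPKM on TH against 15.4 ± 0.999 FPKM on THCaP and 15.6 ± 2.12 FPKM on TH for Med12. Its log2 fold change was 0.63 (SE 0.26, edgeR adjusted p = 0.105). The partner genes Cdk8 (−0.03), Cdk19 (0.11) and Ccnc (0.14) were not called.

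Companion genes that work with this machinery but carry other symbols moved in both directions. Beside their counts, 11.6% of all tested genes were called higher and 12.0% lower. Of 9 tested Pol I genes 5 were higher and none lower (median 0.33), led by Cd3eap with 20.9, 29.8 and 15.5 CPM on THCaP, against 15.7, 10.9 and 11.7 CPM on TH (log2 fold change 0.79, SE 0.23, adjusted p = 0.0344 in edgeR) and the second-largest subunit gene Polr1b (log2 fold change 0.55, SE 0.16, adjusted p = 0.0364 in edgeR). The Pol I list leaves out Polr1c (log2 fold change −0.14) and Polr1d (−0.26), subunits shared with Pol III, which were counted in the Pol III list and not called. Of 24 pausing and elongation genes 4 were higher and 4 lower (median 0.07). There the largest change was the decrease of the elongation factor gene Ell, with 59.1, 52.7 and 66.4 CPM on THCaP, against 90.02, 91.3 and 95 CPM on TH (log2 fold change −0.63, SE 0.09, adjusted p = 0.00454 in edgeR), and next came an increase of Larp7, whose product holds the 7SK RNA (log2 fold change 0.57, SE 0.17, adjusted p = 0.0377 in edgeR). The call of Ell remained in every alternative run. Of 11 genes for polymerase assembly and tail phosphatases 3 were higher and none lower (median 0.14), with Gpn1 (log2 fold change 0.46, SE 0.13, adjusted p = 0.0326 in edgeR) and Rpap1 (log2 fold change 0.37, SE 0.07, adjusted p = 0.0109 in edgeR) first. Cd3eap lost its call without THCaP replicate 1 (0.0764), THCaP replicate 2 (0.0707), TH replicate 2 (0.120) or TH replicate 3 (0.112) and with unfiltered log2(FPKM + 1) values (0.104). Polr1b did so without THCaP replicate 1 (0.0998), THCaP replicate 2 (0.0762), TH replicate 1 (0.0584), TH replicate 2 (0.126) or TH replicate 3 (0.108) and with unfiltered log2(FPKM + 1) values (0.101). Larp7 did so without THCaP replicate 1 (0.108), THCaP replicate 2 (0.0881), TH replicate 2 (0.122) or TH replicate 3 (0.133) and with unfiltered log2(FPKM + 1) values (0.0951). Gpn1 did so without THCaP replicate 1 (0.107), THCaP replicate 2 (0.0760), TH replicate 1 (0.0511), TH replicate 2 (0.115) or TH replicate 3 (0.107) and with unfiltered log2(FPKM + 1) values (0.0763). Rpap1 did so without THCaP replicate 1 (0.0628) or TH replicate 3 (0.0592).

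The remaining companion lists held few calls. Of 12 Pol III and snRNA gene factors 1 was higher and 2 lower (median −0.07): Snapc5 rose (log2 fold change 0.63, SE 0.19, adjusted p = 0.0404 in edgeR), and the Pol III stalk subunit gene Crcp fell (log2 fold change −0.34, SE 0.09, adjusted p = 0.0305 in edgeR) with 26.1, 27.8 and 23.1 CPM on THCaP, against 32.5, 32.4 and 32.5 CPM on TH. Snapc3, a subunit of the complex that activates snRNA genes, was the other gene called lower, with 45.7, 43.6 and 48.9 CPM on THCaP, against 54.1, 54.4 and 56.8 CPM on TH (log2 fold change −0.26, SE 0.08, adjusted p = 0.0451 in edgeR). In the SAGA list 1 of 14 was higher, Sgf29 (log2 fold change 0.44, SE 0.10, adjusted p = 0.0171 in edgeR), and none lower (median 0.03). Of 5 genes for TBP and its regulators 1 was lower, the TBP relative Tbpl1 (log2 fold change −0.25, SE 0.07, adjusted p = 0.0340 in edgeR), while Tbp itself stood at 0.06 (edgeR adjusted p = 0.637). None of the 5 further TFIIH genes and none of the 3 Mediator kinase partners was called. Snapc5 lost its call without THCaP replicate 1 (0.0884), THCaP replicate 2 (0.117), TH replicate 1 (0.0679), TH replicate 2 (0.140) or TH replicate 3 (0.0948) and with limma-voom (0.0504) and with unfiltered log2(FPKM + 1) values (0.0781). Crcp did so without THCaP replicate 1 (0.105), TH replicate 1 (0.0516), TH replicate 2 (0.0955) or TH replicate 3 (0.104) and with unfiltered log2(FPKM + 1) values (0.0708). Snapc3 did so without THCaP replicate 1 (0.166), THCaP replicate 2 (0.110), TH replicate 1 (0.0539), TH replicate 2 (0.119) or TH replicate 3 (0.164) and with library totals (0.0877), with no filter (0.0582), with log2(FPKM + 1) (0.151), with log2(FPKM + 0.1) (0.155) and with unfiltered log2(FPKM + 1) values (0.137). Sgf29 did so without THCaP replicate 1 (0.0575), TH replicate 2 (0.0711) or TH replicate 3 (0.0755). Tbpl1 did so without THCaP replicate 1 (0.124), THCaP replicate 2 (0.0571), TH replicate 2 (0.131) or TH replicate 3 (0.112) and with library totals (0.0665), with log2(FPKM + 1) (0.0611), with log2(FPKM + 0.1) (0.0607) and with unfiltered log2(FPKM + 1) values (0.0696).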

How the data were processed

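The authors deposited raw counts, whole numbers for each gene symbol. The submitters' processing notes name fastp, HISAT2, HTSeq and build mm10. Tool versions, the annotation and the strand setting were not given in the sources used here. The deposited FPKM values (counts scaled for gene length and library size) come from those counts: for 11923 genes, the ratio gave a gene length whole within 0.01 bases in 100% of cases. FPKM was used for levels between genes and in alternatives.

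The test was edgeR 4.0.16 under R 4.3.3, with no covariate. Of all rows, 11480 passed filterByExpr at a minimum count of 10 and total of 15. Scaling used TMM, and THCaP was set against TH by the quasi-likelihood F test in its robust form. The SE is the absolute log2 fold change over the square root of F. CPM are TMM-scaled. The fit was tested on simulated counts. An exact two-sided permutation test of 3 against 3 libraries cannot go below 0.1, so single values rest on the fit across genes. A count of 0 allows up to 3 counts, for counting error only.

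The members, classes and companion lists were chosen with earlier results of these data known. Named were, per class, up to 4 called members with the largest increase and up to 4 with the largest decrease at a mean of at least 1 CPM, and a fixed list of catalytic subunits and related gene groups. Other members give context, chosen after their values were seen. Positions and exon overlaps came from GENCODE vM21 (GRCm38, the assembly that mm10 denotes), which matched all 98 symbols, and upstream sequences from RefSeq (GRCm38.p6), with chromosome 18 left out. No 2 libraries of a surface were alike within sampling noise (chi-square per degree of freedom 3.84 to 48.4). Alternatives were DESeq2 1.42.0, limma 3.58.1 with voom, RLE factors, library totals, 2 other filters, a replicate block, each library left out, and limma on log2(FPKM + 1) or log2(FPKM + 0.1).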

Additional observations from a re-analysis of the deposited data

How the results depend on the processing

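The number of calls moved with the setting, while none of the 18 called members changed sign in any alternative run. The 18 member calls (16 higher, 2 lower) became 22 with DESeq2, 15 with limma-voom and 27 (25 higher) with library totals. They became 28 (26 higher) with either filtered FPKM fit and 11 with unfiltered log2(FPKM + 1) values (11 higher, 0 lower). Over all genes, 2709 calls (1333 higher) became 3367 (1675 higher) with DESeq2, 2607 (1238 higher) with limma-voom and 2967 (1904 higher) with library totals. The filtered FPKM fits called 2726 (1762 higher) with log2(FPKM + 1) and 2706 (1752 higher) with log2(FPKM + 0.1). The unfiltered log2(FPKM + 1) fit called 1294 of all genes (766 higher, 528 lower). Each library left out in turn gave 4 to 33 member calls (3 to 29 higher, 0 to 4 lower), 42 to 62 members without overlap in place of 41, and 756 to 4165 calls over all genes (291 to 2145 higher, 465 to 2020 lower). Without both THCaP replicate 3 and TH replicate 1 there were 49 member calls (39 higher, 10 lower), 78 members without overlap and 5207 calls over all genes (2625 higher, 2582 lower). The cause was not tested. With fewer libraries the surfaces overlap less often for any gene. The share of all genes without overlap was not counted for these omissions, so the rise shows nothing particular to the members.

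The median over members was 0.13 and stayed between 0.08 and 0.19 with each library left out. Class medians with each library left out ran from 0.08 to 0.18 (Gtf2), 0.26 to 0.39 (Gtf3), 0.12 to 0.22 (TAFs), 0.05 to 0.18 (Pol II), 0.16 to 0.25 (Pol III) and 0.0047 to 0.13 (Mediator). Without both libraries the Pol III median was 0.31 and the Mediator median 0.15.

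The labels number the replicates 1 to 3 on each surface but name nothing shared by equal numbers. Deviations from the group means correlated at −0.02, −0.07 and 0.06 for equal numbers and at −0.09 to 0.10 for unequal ones. Such correlations cannot show whether equal numbers share a culture or a batch. With the replicate block 19 members were called (17 higher, 2 lower), the calls of Taf6 (0.0656) and of the companion genes Tbpl1 (0.0744), Snapc3 (0.0748), Polr1e (0.0548) and Supt4a (0.0549) were lost, and 2881 of all genes were called. Depth limits Med12l, and Gtf2a1l, Taf7l and Taf9b were too low to test.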
